A study of Mus musculus with 9 samples.

Results

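The genes described here prepare peptides for MHC class I molecules. They are the immunoproteasome subunits Psmb8, Psmb9 and Psmb10, the peptide transporter subunits Tap1 and Tap2, the loading factor Tapbp, the class I light chain B2m and the regulator Nlrc5. They were taken by symbol from the annotation of the array, with the probe set of highest mean over the 9 arrays standing for each gene. Of the 8 listed genes, 5 had a probe set that named them alone, out of 17097 genes in all. Tap1, Tap2 and B2m were not among the named probe sets and were not analysed here. All 5 measured genes (Psmb8, Psmb9, Psmb10, Tapbp and Nlrc5) lay above the expression filter, which left 11969 genes for testing.

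Nearly all nucleated cells cut their proteins into peptides with the proteasome, carry the peptides into the endoplasmic reticulum through the TAP transporter, and load them onto class I heavy chains paired with B2m. Interferon-gamma replaces the standard catalytic subunits of the proteasome with the immunoproteasome subunits, which leukocytes hold even when unstimulated, and raises the other parts of the pathway. Nlrc5 is a transactivator of class I genes, and tumours often reduce this pathway and so escape cytotoxic T cells.

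The bladders came from female C57BL/6J mice, and the arrays fall into 2 numbered experiments. Experiment 1 holds a healthy PBS bladder, a sham-treated (PBS) tumour bladder, and tumour bladders given 1.7, 8.5 or 17 mM alpha1-oleate, in which an alpha-helical peptide is bound to the fatty acid salt oleate, with 1 array each. Experiment 2 holds a healthy PBS bladder, a sham-treated tumour bladder, and healthy bladders 24 h or 7 d after 17 mM alpha1-oleate, again with 1 array each. Tumours were started on day 0 with MB49 cells, a mouse bladder carcinoma line, after the bladders had been conditioned with poly-L-lysine. PBS or alpha1-oleate was instilled 5 times from day 3 to day 11, and tumour bladders were taken on day 12. The labels give no age, no sampling time for the healthy PBS bladders, and no statement that each array is its own animal or whether animals were pooled. The p-values therefore reflect the spread among these arrays alone, which may be technical. How often the healthy bladders were instilled is not given either. Whole bladders were profiled, so that more cells of a type and more RNA per cell cannot be told apart.

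Values are log2 RMA intensities, on which a difference of 1 is a 2-fold change. Array medians ran from 4.42 to 4.45 in experiment 1 and from 4.20 to 4.24 in experiment 2, so levels are compared within an experiment. The 7 urothelial markers had a summed linear signal of 18880 and 13767 in the healthy PBS bladders against 1838 and 1048 in the sham-treated tumours. The array labelled healthy, 17 mM, 24 h stood apart from its label in part: its 4 measured proliferation markers summed to 553, against 45 in the healthy PBS bladder and 2414 in the tumour of the same experiment. Its urothelial markers (9224) lay nearer the healthy bladder of that experiment. So did its 5 smooth muscle markers (19636, against 16733 with PBS and 6250 in the tumour). Across genes its difference from the healthy PBS bladder correlated at 0.727 (Pearson, 11969 genes, which are not independent) with the tumour difference of experiment 1, against 0.156 for the 7 d array. It is called the array labelled 24 h below. Leaving it out could not change the comparisons that do not use it, because a group of 1 array has its own term in the fit.

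The promoter windows of the members are shown as sequence background, and their part in the members' values was not tested. RefSeq (GRCm38.p6) gave windows from 250 bases before to 50 bases after the start for 6 of the 8 genes, all but Tap2 and Nlrc5. Psmb9, Tap1, Psmb8 and Tap2 are neighbours in that order on chromosome 17. Psmb9 and Tap1 are read from opposite strands, and 275 bases of their windows are the same DNA. The windows of the 4 measured genes that had one are given 5′ to 3′ on the strand of the gene, with motif matches in capitals. They are chr17:34187281-34187580 (minus strand) for Psmb9, chr17:34197945-34198244 (plus strand) for Psmb8, chr8:105938343-105938642 (minus strand) for Psmb10 and chr17:33919228-33919527 (plus strand) for Tapbp.
Psmb9: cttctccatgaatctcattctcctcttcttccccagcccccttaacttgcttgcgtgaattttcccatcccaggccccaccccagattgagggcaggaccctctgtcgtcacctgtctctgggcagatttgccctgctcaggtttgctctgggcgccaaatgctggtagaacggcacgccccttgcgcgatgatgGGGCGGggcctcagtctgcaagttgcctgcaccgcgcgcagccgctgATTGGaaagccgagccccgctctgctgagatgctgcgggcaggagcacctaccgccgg
Psmb8: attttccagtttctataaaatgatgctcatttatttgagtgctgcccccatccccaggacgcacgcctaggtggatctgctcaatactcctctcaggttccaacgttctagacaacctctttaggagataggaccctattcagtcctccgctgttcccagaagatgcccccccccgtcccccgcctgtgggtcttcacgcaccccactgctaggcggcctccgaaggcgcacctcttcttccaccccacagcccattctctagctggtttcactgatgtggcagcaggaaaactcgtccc
Psmb10: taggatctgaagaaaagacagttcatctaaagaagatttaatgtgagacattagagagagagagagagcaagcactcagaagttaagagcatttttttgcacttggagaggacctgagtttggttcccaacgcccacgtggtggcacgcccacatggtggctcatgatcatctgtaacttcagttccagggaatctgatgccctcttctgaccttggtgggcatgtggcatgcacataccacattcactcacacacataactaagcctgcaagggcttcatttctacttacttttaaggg
Tapbp: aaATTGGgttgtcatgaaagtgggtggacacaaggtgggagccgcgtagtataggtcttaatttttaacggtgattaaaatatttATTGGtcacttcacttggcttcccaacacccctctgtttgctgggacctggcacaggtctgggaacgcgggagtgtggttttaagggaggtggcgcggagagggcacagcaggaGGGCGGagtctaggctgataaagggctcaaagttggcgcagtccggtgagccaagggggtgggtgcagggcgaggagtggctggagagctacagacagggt
Both strands were searched for an interferon regulatory factor element (GAAA and GAAA with 2 bases between them), a kB-type element (GGGA and TTCC with 2 bases between them), the CCAAT box and the GC box (GGGCGG), none of which shared bases in these windows. Psmb9 held a GC box and a CCAAT box, Tapbp a GC box and 2 CCAAT boxes, and Psmb8 and Psmb10 none of these motifs. The GC box was in 35.7% and the CCAAT box in 37.4% of all 32851 windows. The interferon regulatory factor element (3.44% of windows) and the kB-type element (1.47%) were in none of the 4 printed windows, while the window of B2m, which has no values here, held both. A match is a description of the letters, not a bound site.

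All 5 measured genes were higher in sham-treated tumour bladders than in healthy bladders, in both experiments. Psmb9, the immunosubunit that takes the place of the caspase-like Psmb6, read 7.34 in the healthy and 10.10 in the tumour bladder of experiment 1, and 6.40 and 9.26 in experiment 2. It rose by 2.81 (log2 difference, SE 0.09, 7.01-fold, limma adjusted p = 0.0024). Psmb8, the chymotrypsin-like subunit, read 7.76 and 10.49 in experiment 1 and 6.83 and 9.53 in experiment 2. These experiments gave nearly the same difference, and the fitted rise was 6.57-fold (SE 0.09 log2, limma adjusted p = 0.0024).

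Psmb10, the third immunosubunit, read 8.25 and 10.50 in experiment 1 and 7.47 and 9.38 in experiment 2. Its rise was 2.08 (SE 0.13, limma adjusted p = 0.00326). Tapbp, which encodes tapasin, the bridge between the transporter and the class I molecule, read 9.70 and 11.16 in experiment 1 and 8.86 and 10.51 in experiment 2. The rise of Tapbp was the smallest of the 5 genes, 2.94-fold (SE 0.10 log2, limma adjusted p = 0.00349). Nlrc5 read 6.20 and 7.98 in experiment 1 and 5.34 and 7.14 in experiment 2, a rise of 1.79 (SE 0.09, limma adjusted p = 0.00262). Within each experiment the tumour array lay above the healthy array for every one of these genes, as for 43.6% of all genes tested. By limma 5 of 5 rose, beside 28.6% of all 11969 genes (57.2% in either direction), and the members' median difference was 2.08 against -0.005 for all genes.

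**Figure D1:**
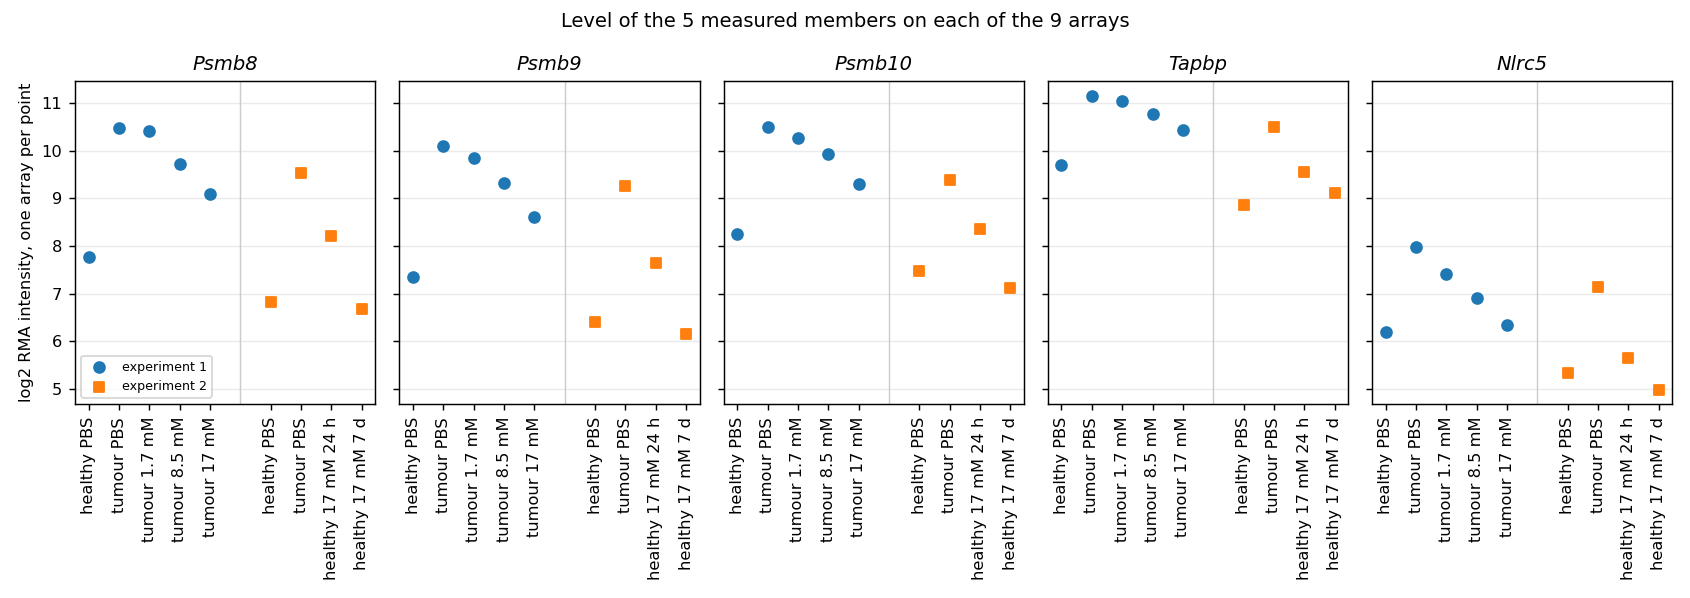
Log2 RMA intensity (y axis) of Psmb8, Psmb9, Psmb10, Tapbp and Nlrc5 on each of the 9 arrays (x axis), 1 point per array, with experiment 1 as circles and experiment 2 as squares. In experiment 1 each gene is lowest in the healthy bladder, highest in the sham-treated tumour, and is lower at each step of dose; Nlrc5 at 17 mM (6.34) lies close to its healthy level (6.20).

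The other genes of the pathway, from lists written for this tissue, also moved mostly upward in the tumours, with the highest list median among the interferon-gamma targets. Beside the counts below, 28.6% of all genes rose by limma. Of the 16 tested interferon-gamma targets 14 rose, with a median of 2.33, led by the chemokines Cxcl9 (5.97) and Cxcl10 (5.67) and the ubiquitin-like Ubd (3.25). Of the 6 peptide-trimming enzymes 6 rose (median 1.05), among them Thop1 (1.17), Erap1, the trimming aminopeptidase of the endoplasmic reticulum (1.12), and Npepps (1.05). Of the 6 loading chaperones 5 rose (median 0.77): Hspa5 by 1.60, Tapbpl, a tapasin relative that edits peptides, by 1.59, and Calr by 1.08. Of the 8 activator and assembly factors 7 rose (median 0.69), led by the PA28 activator subunits Psme2 (1.38) and Psme1 (1.23) and by Psme3 (0.99).

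Among 10 tested class I heavy chains and relatives 7 rose (median 0.86). The non-classical chains H2-Q4 (3.29) and H2-M3 (2.39) and H2-T10 (1.22) led them, and the classical chains H2-K1 and H2-D1 rose by 0.73 and 0.88. Probe sets of these near-identical genes can bind each other's transcripts, so their separate values are uncertain. Of the 14 receptors and signal transducers of interferon 10 rose (median 0.91), with the transcription factors Irf1 at 2.10, Irf8 at 2.08 and Irf7 at 2.0. Among 7 tested partners of Nlrc5 and related regulators, 3 rose (Nfyb by 1.64, Rfxap by 0.88, Nfya by 0.61) and Rfxank fell by 0.43. Both tested cytokines of the ligand list rose, Il18 by 0.71 and Tnf by 0.43.

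Of the 3 standard catalytic subunits, which the immunosubunits replace, 1 rose in the tumours. Psmb5, the counterpart of Psmb8, differed by -0.02 (SE 0.12) between tumour and healthy bladders, and Psmb6, the counterpart of Psmb9, by -0.22 (SE 0.09, limma adjusted p = 0.117). Psmb7, the counterpart of Psmb10, rose by 0.78 (SE 0.14, limma adjusted p = 0.0214). The log2 ratio of Psmb8 to Psmb5 therefore differed between tumour and healthy bladder by 2.61 in experiment 1 and 2.86 in experiment 2. For Psmb9 and Psmb6 the ratio differed by 2.97 and 3.09, and for Psmb10 and Psmb7 by 1.67 and 0.93. With 2 arrays against 2 no exact test of a single ratio could reach 0.05, so these are given as values. Of the 11 other core subunits 6 rose (median 0.42), led by Psma5 (0.90), Psma7 (0.86) and Psmb4 (0.83).

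**Figure D2:**
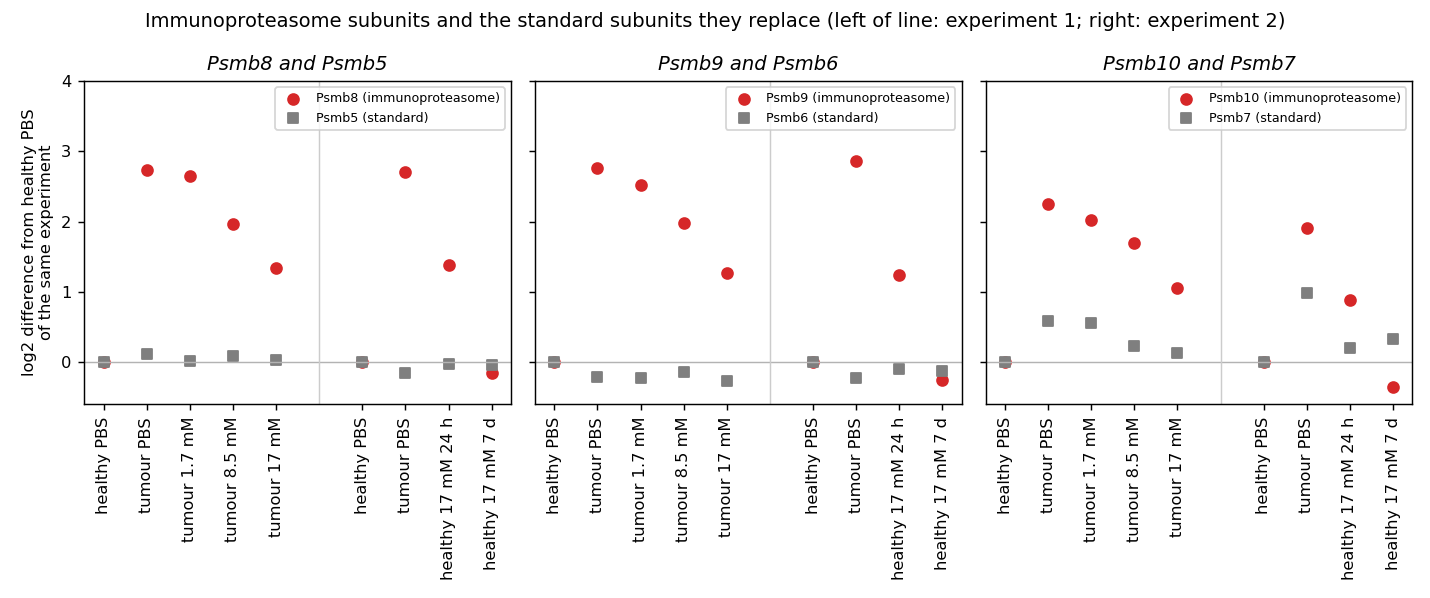
Log2 difference from the healthy PBS array of the same experiment (y axis) on each array (x axis) for each immunoproteasome subunit (circles) and the standard subunit it replaces (squares), 1 array per point. Psmb5 and Psmb6 stay near 0 on all arrays while Psmb8 and Psmb9 stand 2.70 to 2.86 higher in the sham-treated tumours; Psmb7 is raised in both tumours (0.58 and 0.98).

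In tumours given alpha1-oleate the members were lower than in the sham-treated tumour, in the order of dose. Psmb8 read 10.41 at 1.7 mM, 9.73 at 8.5 mM and 9.10 at 17 mM, against 10.49 with PBS. Psmb9 read 9.86, 9.32 and 8.61 at these doses against 10.10, and Psmb10 read 10.27, 9.94 and 9.30 against 10.50. Tapbp read 11.05, 10.78 and 10.44 against 11.16, and Nlrc5 read 7.42, 6.91 and 6.34 against 7.98. All 5 genes were lower at each step, as 21.2% of all genes tested were. At 1.7 mM alone 50.3% of all genes lay below the sham-treated tumour.

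At 17 mM (1 array against 2) all 5 genes fell by limma, beside 10.6% of all genes (26.3% in either direction). Nlrc5 fell by 1.65 (SE 0.12, adjusted p = 0.0159), Psmb9 by 1.52 (SE 0.12, adjusted p = 0.0171) and Psmb8 by 1.38 (SE 0.12, adjusted p = 0.0178). Psmb10 fell by 1.11 (SE 0.17, adjusted p = 0.0326) and Tapbp by 0.77 (SE 0.14, adjusted p = 0.0404). The members' median was -1.38 against -0.045 for all genes. Without the experiment as a block none passed (differences from -1.22 to -0.395, adjusted p from 0.166 for Nlrc5 to 0.941 for Tapbp); the sham-treated tumours averaged in that fit read 10.49 and 9.53 for Psmb8. The comparison shares its sham-treated tumours with the tumour comparison above, so an unusual tumour array would move both.

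At 8.5 mM, 3 of 5 fell, beside 4.65% of all genes. They were Nlrc5 (-1.07, SE 0.12, limma adjusted p = 0.0299), Psmb9 (-0.81, adjusted p = 0.0427) and Psmb8 (-0.75, adjusted p = 0.0439). Psmb10 read -0.47 (adjusted p = 0.157) and Tapbp -0.43 (adjusted p = 0.129), neither past the threshold. Without the block 0 members passed at 8.5 mM (adjusted p for Nlrc5 = 0.852), and with no expression filter Nlrc5 alone passed (limma adjusted p = 0.0372). With the mean of probe sets Psmb8 did not pass (-0.58, limma adjusted p = 0.063). Of the other pathway genes H2-M3 fell at 8.5 mM (-0.86) and Fcgrt rose (1.34). At 1.7 mM limma called 0 members and 0 genes (0% of all genes). There 1 member and 1595 genes had unadjusted p under 0.05, and 36 genes passed without the block. That member was Nlrc5 (-0.57, SE 0.12, adjusted p = 0.287), and the other 4 read from -0.27 (Psmb9) to -0.072 (Psmb8).

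Fitted as a slope over 0 (sham), 1.7, 8.5 and 17 mM, the members changed by -0.090 (Nlrc5), -0.087 (Psmb9), -0.084 (Psmb8), -0.064 (Psmb10) and -0.044 (Tapbp) log2 per mM, with SE from 0.007 to 0.012. All 5 fell with dose by limma (adjusted p = 0.0234 for each), beside 14.4% of all genes (30.9% in either direction). The calls depended on single arrays. Without the 1.7 mM array (adjusted p = 0.0561), either healthy PBS array (0.0591), the sham-treated tumour of experiment 1 (0.113) or that of experiment 2 (0.0591) none of the 5 passed, and neither did any other gene. The fits at 0.0591 are the same fit, in which the slope rests on the experiment 1 tumours alone. All of these fits also have fewer residual degrees of freedom than the full fit. Without the 17 mM array 3 passed, without the block none did, and the slopes stayed negative in each of these fits.

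Measured as the share of the tumour rise in experiment 1 that was gone, on the log2 scale, 4 of the genes lay close together at 17 mM. The share was 50.9% for Psmb8, 54.0% for Psmb9, 53.3% for Psmb10 and 49.3% for Tapbp. The median over the 1462 genes that were at least 2-fold higher in the tumours of both experiments was 51.4%, with quartiles at 38.2 and 63.6%. For Nlrc5 the share was 92.1%, which placed it at the 97.5th percentile of those genes. Nlrc5 had 1 probe set, at the lowest mean level of the 5 genes (6.44), so there was no other reading of it. At 8.5 mM Nlrc5 had lost 60.1% and the other 4 between 24.9% and 28.3%, against a median of 39.2%. At 1.7 mM the share was 31.5% for Nlrc5, at the 92.3rd percentile, and 2.9% to 10.2% for the others, against a median of 9.6%. Each share rests on 1 array per dose and on 1 tumour and 1 healthy array, and the difference of Nlrc5 from the other members was not tested.

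**Figure D3:**
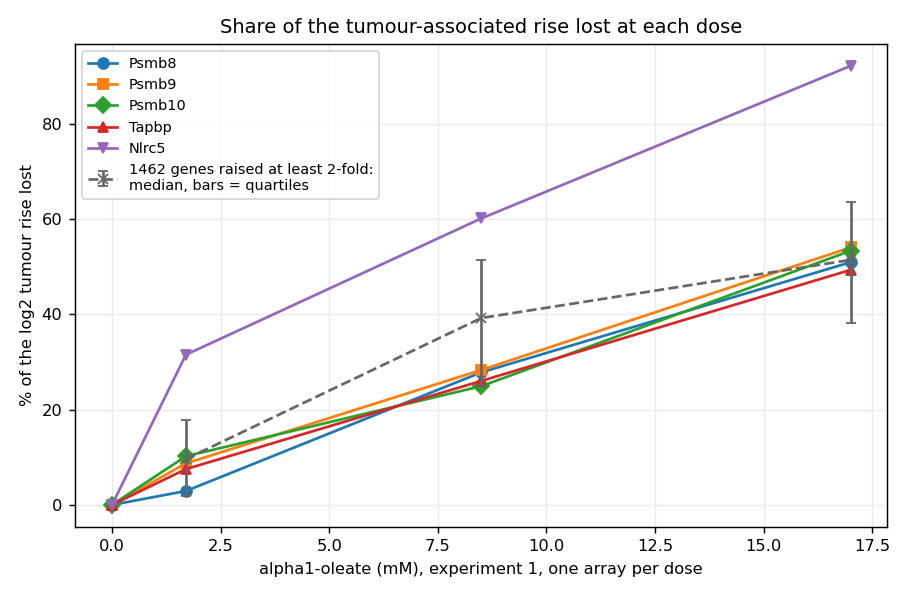
Percentage of the log2 difference between the sham-treated tumour and the healthy bladder of experiment 1 that was lost (y axis) at each dose of alpha1-oleate in mM (x axis), 1 array per dose. The dashed line is the median of 1462 genes raised at least 2-fold in both tumours and its bars the quartiles; Nlrc5 reaches 92.1% at 17 mM, and the other 4 genes lie between 49.3% and 54.0%.

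At 17 mM fewer of the other pathway genes passed than in the tumour comparison. Fewer of all genes passed too, 26.3% against 57.2% in either direction, and 10.6% fell at 17 mM. The 17 mM comparison sets 1 array against 2, the tumour comparison 2 against 2. Of the 8 activator and assembly factors 3 fell, Psme2 by 0.73, Psme1 by 0.70 and Psmg4, a chaperone of core assembly, by 0.70 (list median -0.69). Of the 6 trimming enzymes Erap1 (-0.91) and Tpp2 (-0.66) fell (median -0.55), and of the 6 loading chaperones Tapbpl (-1.04) and Hspa5 (-0.83) fell (median -0.44). Of the 10 class I heavy chains and relatives H2-Q4 (-1.66) and H2-M3 (-1.33) fell and Fcgrt, the neonatal Fc receptor that also pairs with B2m, rose by 1.40 (median -0.50). H2-K1 read -0.52 (limma adjusted p = 0.067) and H2-D1 -0.58 (limma adjusted p = 0.0614).

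Of the 14 interferon receptors and transducers Irf7 (-1.14), Irf1 (-0.96) and Irf8 (-0.95) fell (median -0.28). Of the 16 interferon-gamma targets 4 fell, among them Cxcl9 (-1.56), Gbp2 (-0.95) and Gbp3 (-0.87), with a median of -0.86. None of the 7 partners and regulators passed (Nfyb -0.78, Rfxap -0.56), nor did either cytokine (Tnf -0.54, Il18 -0.53). Psmb5 read -0.02, Psmb6 -0.055 and Psmb7 -0.55, none past the threshold, and 2 of the 11 other core subunits fell, Psma7 by 0.66 and Psma5 by 0.64.

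Leukocyte markers moved in the same comparisons. Of the pan-leukocyte markers 6 of 6 rose in the tumours, beside 28.6% of all genes, and 2 of 6 fell at 17 mM, beside 10.6%. Their summed linear signal was 863 in the healthy bladder, 6372 in the sham-treated tumour, and 5601, 5297 and 3911 at the rising doses. In experiment 2 the sum was 567 in the healthy and 3657 in the tumour bladder. The 9 macrophage markers summed to 1739, 9422, 10387, 9601 and 7850 in the same order in experiment 1, and 9 of 9 rose in the tumours while 1 of 9 fell at 17 mM. The 8 measured T cell markers summed to 349, 642, 785, 948 and 733. Thy1, which other cells also carry, rose at 17 mM (1.19), while the other 7 T cell markers read lower, with Cd3g (-1.0) and Cd8b1 (-0.85) past the threshold. The mean log2 level of the T cell list was 6.00 in the sham-treated tumour and 5.56 at 17 mM. The 6 natural killer cell markers summed to 121, 458, 634, 491 and 275, and the 5 neutrophil markers to 136, 2846, 808, 680 and 712. The 5 dendritic cell markers summed to 154, 404, 322, 320 and 268, and the 3 B cell markers to 58, 67, 70, 80 and 65.

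As list means on the log2 scale, the 5 members lost 58.7% of their tumour rise at 17 mM. Singly, Nlrc5 lost 92.1% and the other 4 members from 49.3% to 54.0%. The median over the 1462 genes raised in both tumours was 51.4%. The pan-leukocyte list lost 21.8%, the macrophage list 12.8%, the T cell list 44.2%, the neutrophil list 42.4% and the proliferation list 27.9%. These shares depend on the size of the rise, which was 5.965 for the proliferation list and 2.196 for the members. The mean log2 level of the members went from 10.046 in the sham-treated tumour to 8.758 at 17 mM. That of the proliferation list went from 9.905 to 8.242. As summed linear signal the members read 1588 in the healthy bladder, 6524 in the sham-treated tumour and 3040 at 17 mM. The proliferation list read 63, 4039 and 1274. At 8.5 mM the members had lost 32.3%, against 8.3% for the pan-leukocyte, 0.9% for the macrophage, 19.7% for the proliferation and 43.1% for the neutrophil list. The median of the 1462 raised genes was 39.2% at that dose. At 1.7 mM the neutrophil list had lost 35.2% and the members 11.1%. The rise in experiment 1 was 2.196 for the members and smaller for most pathway lists, where a small change makes a large share. At 17 mM the other core subunits had lost 77.0% of 0.518 and the activator and assembly factors 69.0% of 0.755. The trimming enzymes had lost 61.2% of 0.918 and the loading chaperones 57.4% of 0.825. The interferon ligands had lost 79.0% of 0.572 and the class I heavy chains and relatives 41.9% of 0.713. These 2 list means cover all 6 ligands and all 13 class I genes with a probe set, also those below the expression filter. Among the latter, Ifng read 3.45 in the healthy bladder, 5.15 in the sham-treated tumour and 4.09 at 17 mM. H2-Q1 moved the other way, at 4.95, 2.69 and 3.41. In experiment 2 the ligand list rose by 0.218. The interferon-gamma targets had lost 39.1% of 2.799, and the interferon receptors and transducers 35.4% of 1.051. The urothelial markers moved the other way, from 18880 in the healthy bladder to 1838 in the tumour and 11402 at 17 mM. The 5 smooth muscle markers summed to 18493, 9743 and 29110 in these bladders, and 5 of 5 rose at 17 mM, beside 15.7% of all genes. The 5 fibroblast markers summed to 5085, 2399 and 9942, and 3 of the 4 tested rose, beside the same 15.7%. The part of these cell types in the members' values was not tested.

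**Figure D4:**
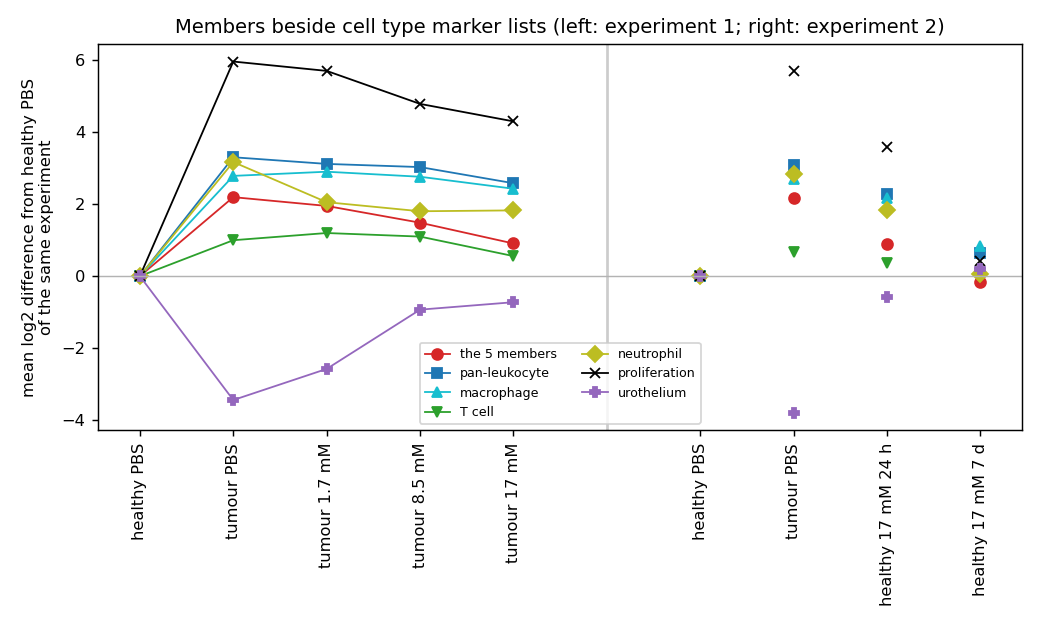
Mean log2 difference from the healthy PBS array of the same experiment (y axis) on each array (x axis) for the 5 members and for 6 marker lists, 1 array per point, with lines joining experiment 1. From the sham-treated tumour to 17 mM the members lose 58.7% of their rise and the macrophage markers 12.8%. The median loss of the 1462 genes raised in both tumours is 51.4%.

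Set against healthy bladders, 2 of the 3 immunosubunits were higher in the 17 mM tumour. Psmb8 was 1.33 higher (SE 0.12, limma adjusted p = 0.0459) and Psmb9 1.29 higher (SE 0.12, adjusted p = 0.0472), 2 of 5 members beside 2.61% of all genes (0.368% were lower). Psmb10 read 0.97 (adjusted p = 0.0796), Tapbp 0.79 (adjusted p = 0.0775) and Nlrc5 0.15 (SE 0.12, adjusted p = 0.455). Neither of the 2 calls held with no expression filter or with the mean of probe sets. Of the wider lists the interferon-gamma targets Cxcl9 (4.41), Iigp1 (2.08) and Gbp3 (1.37) and the class I relative Fcgrt (1.22) were higher by limma.

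In the healthy bladders of experiment 2, the members were higher on the array labelled 24 h and near or below the PBS level at 7 d. Psmb8 read 6.83 with PBS, 8.21 on the array labelled 24 h and 6.68 at 7 d. Psmb9 read 6.40, 7.64 and 6.14, Psmb10 read 7.47, 8.35 and 7.12, and Nlrc5 read 5.34, 5.65 and 4.98. Tapbp read 8.86, 9.56 and 9.11, and was above PBS at 7 d, while the other 4 were below it, as were 55.4% of all genes. On the array labelled 24 h all 5 lay between the healthy and the higher tumour bladder, as 30.4% of all genes did. Only genes higher in the tumour of that experiment could do so, and 43.6% of all genes were higher in the tumours of both experiments.

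No member passed in either comparison (0 of 5, beside 0% of all genes by limma). On the array labelled 24 h the differences ran from 1.39 for Psmb8 (SE 0.12, limma adjusted p = 0.071) and 1.22 for Psmb9 (adjusted p = 0.0799) to 0.30 for Nlrc5 (adjusted p = 0.274), and 4 members and 2503 genes had unadjusted p under 0.05. With all arrays quantile-normalized together 3 members passed there, and with a variance trend 2. The members carried 41.3% of their tumour rise on this array as a list mean, with 51.1% for Psmb8 and 17.2% for Nlrc5. The median over the 1462 genes raised in both tumours was 37.8%, with quartiles at 25.2 and 52.3%. The pan-leukocyte markers carried 74.2%, the macrophage markers 80.0% and the proliferation markers 63.2%, and the part of these cells was not tested. These log2 shares depend on the size of the rise, which in experiment 2 was 5.7 for the proliferation markers and 2.184 for the members. As summed linear signal the proliferation markers read 45 with PBS, 553 on this array and 2414 in the tumour. The members read 881, 1627 and 3618. Here too limma called none of the pathway genes, among which Cxcl9 read 4.18 (adjusted p = 0.0577), Cxcl10 3.54, H2-Q4 1.64, Irf7 1.20 and Psme2 0.60. At 7 d the 5 members read from -0.36 (Nlrc5, SE 0.12, adjusted p = 0.542) to 0.20 (Tapbp, adjusted p = 0.659), with 1 member and 1096 genes at unadjusted p under 0.05. The pan-leukocyte markers summed to 833 at 7 d against 567 with PBS, and the macrophage markers to 1972 against 1153. The pathway genes at 7 d ran from -0.77 (Il18) and -0.72 (Gbp2) to 0.71 (Npepps), and none passed.

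The difference between the 17 mM effect in tumours and that in healthy bladders was also fitted, a contrast added after seeing the data. With the array labelled 24 h it was negative and past the threshold for 5 of 5 members by limma, beside 8.52% of all genes in that direction (19.1% in either), from -2.77 for Psmb8 (SE 0.17) to -1.42 for Tapbp (SE 0.20). With the 7 d array 0 of 5 passed, beside 0.443% of all genes in that direction (3.2% in either). The labels give no matching schedule for healthy bladders, so doses but not numbers of instillations are known to match.

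The members followed one another closely across the 9 arrays once each value was taken from the mean of the 2 PBS arrays of its experiment. Pearson's r was 0.997 between Psmb8 and Psmb9, 0.995 between Psmb8 and Psmb10 and 0.996 between Psmb9 and Psmb10. It ran from 0.975 to 0.986 between Tapbp and the 3 subunits and from 0.922 to 0.941 for Nlrc5 with the other 4. The 10 genes most like the mean of the members were H2-M3 (r = 0.998), Psme2 (0.998), Nme1 (0.997), Tipin (0.996), Syce2 (0.996), Hars (0.996), Hk2 (0.996), Ddx39a (0.996), Snrpb (0.996) and Pstpip1 (0.996). The closest single genes were Kpna2 for Psmb8 (0.998), Mcm5 for Psmb9 (0.998), Parp12 for Psmb10 (0.997), Arap3 for Tapbp (0.998) and Ifi35, an interferon-induced gene, for Nlrc5 (0.998). These correlations are descriptions over 9 arrays that differ mostly by tumour and dose, and 1354 genes had r above 0.95 with the members' mean.

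Other probe sets for 3 of the genes were compared with those used. The other Tapbp probe set gave tumour differences of 1.56 and 1.66 in the 2 experiments and -0.77 at 17 mM, close to 1.46, 1.65 and -0.72 from the one used. For Psmb9 a probe set of mean level 7.17 gave 2.50, 2.48 and -1.39 against 2.76, 2.86 and -1.49. A dimmer Psmb9 probe set (mean 3.89) gave 0.41, 0.40 and -0.57, and a dim one of Psmb8 (mean 3.70) gave 1.27, 0.99 and -0.85. These other Psmb9 and Psmb8 probe sets were assigned to the genes by the annotation, but their target sequences differ from those of the probe sets used. Whether they read the same transcripts was not tested. The directions in the tumour and at 17 mM were the same for all 9 probe sets of the 5 genes. At 1.7 mM they were not: the other Tapbp probe set read 0.10 and the dim Psmb9 one 0.42 above the sham-treated tumour.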

How the data were processed

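The authors deposited log2 RMA intensities of 45077 probe sets on 9 Affymetrix mouse PM arrays. The submitters' processing notes name RMA and, as software, Transcriptome Analysis Console 4.0.1.36. RNA came from frozen, pulverised bladders, per the labels' protocols. Sorted values deviated by 0.022 within an experiment and differed by 0.329 between the 2 experiments, so each experiment looks normalized apart and the experiment number was a block in the model. Same-numbered PBS arrays deviated together (r = 0.647 across genes). The members, lists and tests were chosen with earlier results of these data known.

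Of the probe sets 28898 named 1 gene, 551 several and 15588 none, and 40 were controls (28689 were matched by Entrez number to GRCm38.p6 gene symbols). The probe set of highest mean stood for a gene. The lowest 30% of gene means (below 4.16) were left out. Differences were fitted on all 9 arrays with limma (lmFit and eBayes, 7 groups and the block), two-sided, with Benjamini-Hochberg adjustment over 11969 genes and calls at 0.05. The fit left 1 residual degree of freedom (3 for the dose slope) and 2.23 prior degrees (2.54). Single arrays were assumed to vary like the PBS groups, and precision is limited by how few arrays there are. Named in each comparison were all members, up to 3 passing genes of each list (or up to 2 by size where none passed, as values), and the genes most correlated with the members. The alternatives were no block, joint quantile normalization, other filters, probe sets averaged per gene, a variance trend, ranked doses, single arrays left out and direct differences within an experiment. The model ran in limma 3.58.1 under R 4.3.3, tables were handled by pandas 2.3.3 and numpy 2.4.6 in Python 3.11.15, and figures were drawn by matplotlib 3.10.9.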

Additional observations from a re-analysis of the deposited data

Results flagged for a closer look

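The effect of 17 mM alpha1-oleate against PBS differed between tumour and healthy bladders when the array labelled 24 h stood for the healthy ones, by a limma contrast of the 2 differences that was added after seeing the data. The tumour effect minus the healthy effect was -2.77 log2 for Psmb8 (SE 0.17, adjusted p = 0.0264), -2.73 for Psmb9 (adjusted p = 0.0264), -2.08 for Psmb10 (adjusted p = 0.0329), -1.95 for Nlrc5 (adjusted p = 0.0264) and -1.42 for Tapbp (adjusted p = 0.0383). In all, 5 of 5 members passed, beside 8.52% of all genes in that direction. Each treated group is 1 array, tumours had 5 instillations while the labels give no number for healthy bladders, and the array labelled 24 h carried proliferation markers (sum 553 against 45 with PBS), whose part was not tested. With the 7 d array in its place the contrast ran from -1.28 for Nlrc5 (adjusted p = 0.0578) to -0.85 for Psmb10 (adjusted p = 0.142), and 0 of 5 passed (53 genes, 0.443%, were called in that direction, and 5 of 5 members had unadjusted p under 0.05).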

How the results depend on the processing

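The rise of all 5 members in tumours and their fall at 17 mM passed in every tested alternative that kept the experiment block (10 of 10 and 9 of 9 for each member). These counts include fits without a single treated array outside the comparison. Such fits could not differ, because each treated array has its own term in the model. Leaving out a PBS array left no residual degrees of freedom in the group comparisons, so its values have no test. In the tumour and 17 mM comparisons every value kept its direction. At 1.7 mM Psmb10 read 0.11 without the sham-treated tumour of experiment 1. Without the replicate block, members called fell from 5 to 0 at 17 mM, from 3 to 0 at 8.5 mM and from 5 to 0 for the dose slope, and genes called were 3172 (tumour, 6852 with the block), 1217 (17 mM, 3147), 945 (8.5 mM, 1872), 36 (1.7 mM, 0), 1125 (slope, 3698), 590 (17 mM against healthy, 356), 126 (array labelled 24 h, 0) and 15 (7 d, 0). It also turned the 1.7 mM values of Psmb8 (0.40), Psmb9 (0.18), Psmb10 (0.33) and Tapbp (0.21), Nlrc5 on the array labelled 24 h (-0.12) and Tapbp at 7 d (-0.17). With joint quantile normalization genes called were 3480 at 8.5 mM, 2275 at 17 mM against healthy (4 members), 836 on the array labelled 24 h (3 members) and 7 at 7 d; the median of all genes was then -0.12 at 17 mM and -0.116 at 8.5 mM. With no expression filter 1 member passed at 8.5 mM, and at 17 mM against healthy 0 members and 202 genes. With the lowest 50% left out genes called were 577 (17 mM against healthy) and 121 (array labelled 24 h), with the mean of probe sets 684 (0 members) and 96, and with a variance trend 732 and 198 (2 members). The mean of probe sets turned Psmb9 at 1.7 mM (0.041) and Psmb8 (0.084), Psmb9 (0.024) and Tapbp (-0.026) at 7 d. Leaving out single arrays moved the dose slope's calls between 0 and 5 members and between 0 and 3698 genes. In the other comparisons only arrays outside the contrast and its PBS groups could be left out with a test. Those fits could not differ from the main fit. The cause of the changes across settings was not tested.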

Other observations

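Ifng, the interferon that raises this pathway, lay below the expression filter and has no test of its own. In experiment 1 it read 3.45 in the healthy bladder, 5.15 in the sham-treated tumour, and 5.45, 4.62 and 4.09 at 1.7, 8.5 and 17 mM. In experiment 2 it read 3.09 with PBS, 3.70 in the tumour, 3.04 on the array labelled 24 h and 3.01 at 7 d. Its targets Cxcl9 and Cxcl10 read 4.15 and 3.08 with PBS in that experiment and 8.19 and 6.34 on the array labelled 24 h. Ciita, the class II relative of Nlrc5, was also below the filter and read 4.72 in the healthy bladder, 5.04 in the sham-treated tumour and 4.46 at 17 mM.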
